A study of Caenorhabditis elegans with 4 samples.

Results

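Most autosomal MRG-1 peaks of the second ChIP replicate in adult Caenorhabditis elegans lay in clusters, and the peaks described here stood alone and were narrow. The assay was ChIP-seq, in which DNA bound by a protein is enriched with an antibody and sequenced. They were selected on measured values of the replicate 2 peak list, namely a width below 2000 bp and a gap of at least 5000 bp to the nearest peak of that list on each side, on any chromosome but X. The rule found 300 of the 3895 peaks of replicate 2, of which 3858 were autosomal. The other autosomal peaks were 1489 narrow peaks with a closer neighbour, called narrow clustered peaks here, 541 wide peaks that stood alone and 1528 wide peaks with a closer neighbour. Since width and gaps chose the 300 peaks, those values are given as a description only.

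All 4 samples, 2 MRG-1 ChIP samples and 2 input samples, came from hermaphrodites of genotype fem-2(b245)III kept at 20 °C, with no untreated or wild-type group beside them. Fem-2 is a sex-determination gene needed for male fates, and the stage is given as young adult with germline in one label and as gravid adult in the growth protocol. ChIP used an affinity-purified rabbit polyclonal antibody, MRG-1 SDQ4068, on chromatin fixed with 1% formaldehyde for 10 minutes. The labels do not say whether replicates came from separate cultures, the input samples are not analysed here, and the files give no read counts, so the depth behind each peak is unknown.

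MRG-1 belongs to the MRG15 family of chromodomain proteins, whose relatives in yeast and mammals bind nucleosomes carrying the histone H3 lysine methylation that is laid down over the bodies of transcribed genes. In the worm it is best known from the germline, where it is needed for primordial germ cells to survive and for the silencing of X-linked genes. A peak list says where such signal passed the authors' threshold, and a narrow peak that stands alone can be set against the 1 gene it touches.

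The 300 isolated narrow peaks were between 412 and 1993 bp wide, with a median of 1245 bp, and their nearest neighbour lay between 5012 and 358446 bp away, with a median of 11795 bp. The authors deposited a score with every peak. The files do not define it, and scores are used here only to rank peaks within this list. The isolated narrow peaks scored between 50.03 and 1813.81 with a median of 102.91, against a median of 382.88 for all other autosomal peaks of the list. Narrow clustered peaks had about the same scores and widths, with medians of 102.01 and 1184 bp. The median isolated narrow peak stood at percentile 24.1 of all replicate 2 scores, and the highest at percentile 82.5. The widest, at III 12205044 to 12207036 on WormBase WS220, was 1993 bp, while the narrowest isolated peaks just outside the rule were 2019, 2020 and 2020 bp. The closest gaps inside the rule were 5012, 5023 and 5047 bp, and the nearest outside it were 4981, 4956 and 4926 bp.

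**Figure D1:**
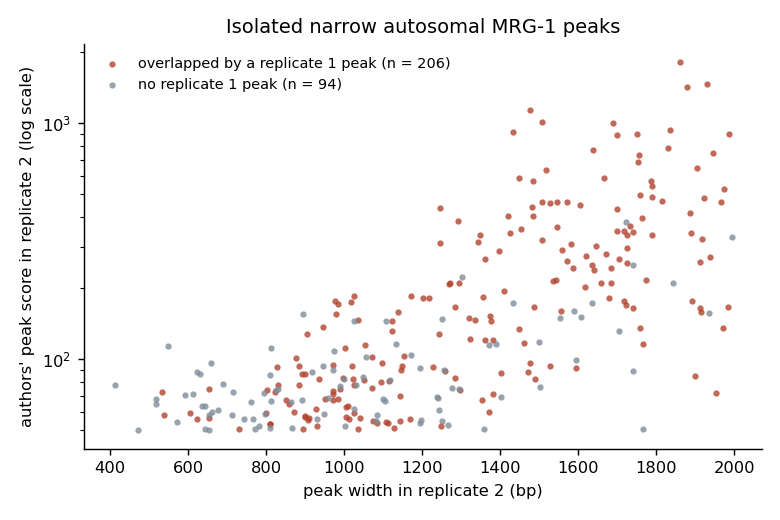
Width (bp) against deposited score (log axis) in replicate 2, one point for each of the 300 isolated narrow peaks, coloured by whether a replicate 1 peak overlaps it (206) or not (94). Scores run between 50.03 and 1813.81, wider peaks score higher, and the points without a replicate 1 peak gather at low width and score.

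Chromosome V carried the most isolated narrow peaks, 70, against 62 on I, 51 on II, 63 on III and 54 on IV. Isolated narrow peaks made up 12.7% of the autosomal peaks on V (exact 95% interval 10.0 to 15.7%), against 6.30% on I, 7.25% on II, 6.94% on III and 7.61% on IV. Per megabase the order was different, with 4.57 on III, 4.12 on I, 3.36 on V, 3.35 on II and 3.09 on IV. The middle 50% of the chromosomes, where most broadly expressed worm genes lie, held 97 of the 300 peaks, or 32.3% (27.1 to 37.9%). It held 60.1% of all other autosomal peaks, 50.3% of the narrow clustered peaks and 70.6% of the wide peaks that stood alone. The isolated narrow peaks thus lay mainly on the chromosome arms. The gap rule selects peaks with distant neighbours, and its part in this difference was not tested. Intervals here and below are exact Clopper-Pearson intervals and cover counting error only.

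Replicate 1 was not used by the rule. A replicate 1 peak overlapped 206 of the 300 isolated narrow peaks by at least 1 bp, or 68.7% (63.1 to 73.9%). The same 300 intervals moved along their chromosomes by 10 to 100 kb in either direction, 20 shifts in all, met a replicate 1 peak in 24.5% of cases on average and in 20.0 to 29.0% in single shifts. These shifted positions serve as the background throughout, and all 20 were below the value at the peaks. Limited to positions off every replicate 2 peak, the shifts met a replicate 1 peak in 9.92% of cases on average (6.12 to 14.1%), and limited to positions at least 5000 bp from every replicate 2 peak in 2.52% (0 to 5.64%). The overlap of the narrow clustered peaks was 79.1%, and that of the wide peaks that stood alone was 97.6%. On chromosome V, 54 of 70 isolated narrow peaks were overlapped in replicate 1, against 38 of 62 on I, and the intervals of these shares overlapped (65.6 to 86.3% on V, 48.1 to 73.4% on I).

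The replicate 1 peaks at these places were mostly wider, and since the rule kept only narrow replicate 2 peaks, that direction is in part fixed by the selection. The replicate 1 peak had a median width of 2803.5 bp (quartiles 2157.5 and 3964 bp) and was wider than the replicate 2 peak in 205 of 206 cases. It covered 168 of the 300 isolated narrow peaks from end to end. Of these 206 peaks, 36 had a replicate 1 peak below 2000 bp, and 17 of the 300 were also isolated and narrow in replicate 1. The same rule in replicate 1 found 107 of 2769 peaks, of which 30, or 28.0%, were overlapped by a replicate 2 peak, against 17.5% on average (10.3 to 24.3%) at their shifted positions. At the 30 places selected that way, the replicate 2 peak was the wider in 9 cases, with a median of 1447.5 bp, against 1695 bp for the replicate 1 peaks. The median peak was 2163 bp wide over the whole replicate 2 list and 4277 bp over the whole replicate 1 list. Being isolated and narrow was thus mostly a property of a place in 1 list, not in both.

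The 94 isolated narrow peaks without a replicate 1 peak were narrower and scored lower. Their median width was 1001.5 bp, against 1366 bp for the 206 with one, and their median score percentile was 14.3, against 35.2. The nearest replicate 1 peak to these 94 lay a median of 7878.5 bp away, and for 30 of them it lay within 5 kb. In 4 groups of 75 peaks ordered by score, from low to high, replicate 1 overlapped 37, 43, 54 and 72 peaks, so that the highest group was overlapped in 96.0% of cases (88.8 to 99.2%). The series-wide list of 12147 peaks overlapped 251 of the 300 (83.7%), comprising 202 that also had a replicate 1 peak and 49 that did not. No peak of either other list touched 45 of them. How the series-wide list was made from the replicates is not given in the sources used here, so it is no independent measurement.

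The question posed by these peaks is which single genes they mark and at which place in the gene. Gene positions came from the RefSeq gene table for WBcel235, which lies within about 200 bp of WS220, and moving the whole table by 200 bp either way left the shares at exactly 1 gene, with the midpoint in a gene, within a gene, at a gene end and at non-coding genes within their counting intervals. Exactly 1 protein-coding gene was touched by 227 of the 300 isolated narrow peaks, or 75.7% (70.4 to 80.4%), against 66.7% on average (61.7 to 74.0%) at the shifted positions. No protein-coding gene was touched by 33 peaks, or 11%, against 21.1% (14 to 28.3%) at the shifted positions. Another 40 peaks, or 13.3%, touched 2 or more, against 12.3% (10.0 to 19.7%). The midpoint lay inside a protein-coding gene for 251 peaks, or 83.7% (79.0 to 87.7%), against 66.3% (57.7 to 74.7%) at the shifted positions. All 20 shifts were below the peaks for exactly 1 gene and for the midpoint. The highest shift for exactly 1 gene lay inside the counting interval of the peaks' own share. Neither trait was particular to these peaks. The midpoint lay in a gene for 87.6% of narrow clustered peaks, against 67.5% at their shifted positions. It did so for 83.9% of wide peaks that stood alone and 84.8% of wide peaks with a closer neighbour, against 63.6% and 66.4%. Exactly 1 gene was touched by 77.5% of narrow clustered peaks, against 65.8%. The wide peaks, at 23.7% and 32.6%, were below their shifts. The 227 peaks fell on 211 genes, which are 1.22% of the 17241 autosomal protein-coding genes, where any replicate 2 peak touched 5573, or 32.3%.

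**Figure D2:**
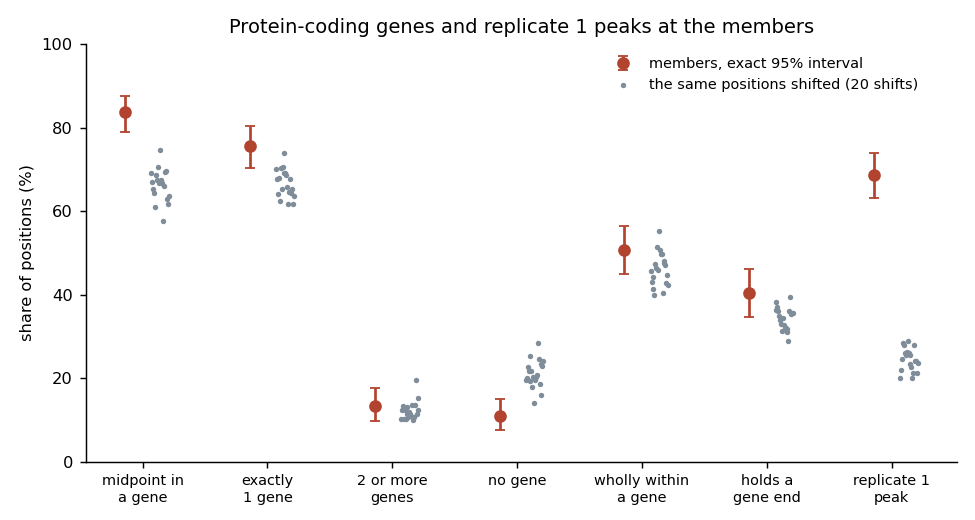
Percent of the 300 isolated narrow peaks with each property ("members" in the plot, with exact 95% intervals) and percent at the 20 shifted copies of the same intervals (one small point per shift). Replicate 1 overlap, at 68.7% against at most 29.0% in a shift, and the midpoint inside a gene, at 83.7% against at most 74.7%, stand furthest from the shifts.

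The genes marked singly were long. Over the 227 peaks the marked gene had a median length of 9600 bp (95% order-statistic interval 8326 to 10606 bp), against a mean of 5767 bp over the medians of the 20 shifts, which ran from 4588 to 7989.5 bp. The 211 distinct genes had a median length of 9262 bp and ran from 340 to 49607 bp, while all autosomal protein-coding genes had a median of 1946 bp. Long genes fill more of the chromosome, so the shifted positions and not the gene list are the fitting comparison. Isolated narrow peaks marked 32 of the 166 genes of 20 kb or more, or 19.3% (13.6 to 26.1%), where the shifts marked a mean of 21.3 (9 to 32). Of the 648 genes between 10 and 20 kb they marked 65, or 10.0%, against 35.6 (22 to 54) in the shifts. Of the 1793 genes between 5 and 10 kb they marked 58, or 3.23%, inside the range of the shifts, at 49.3 (39 to 59). Of the 5761 genes between 2 and 5 kb they marked 30, or 0.521%, against 57.2 (41 to 69) in the shifts. For genes between 1 and 2 kb the counts were 16 by the peaks and 26.5 (16 to 37) by the shifts, and below 1 kb they were 10 by the peaks and 6.1 (2 to 10) by the shifts.

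**Figure D3:**
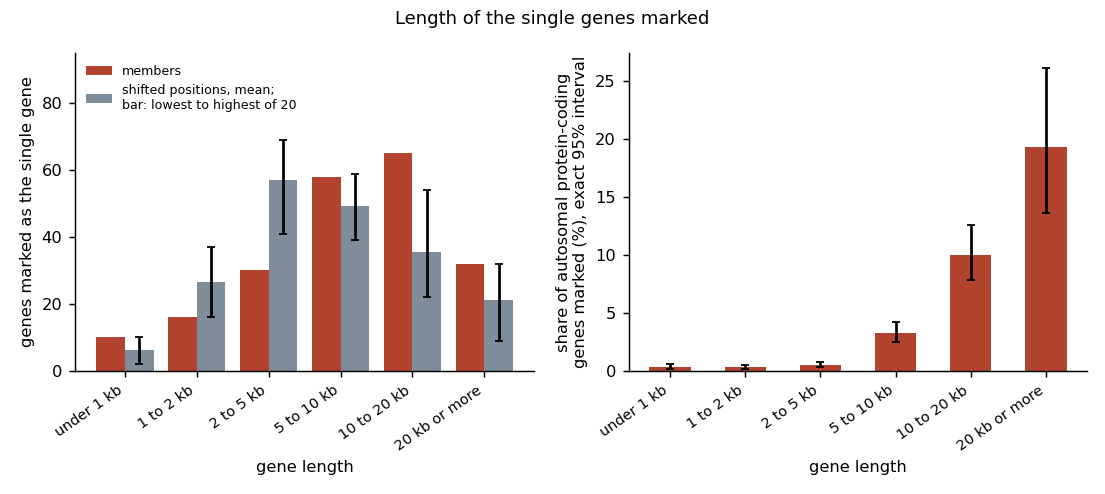
Left, number of single marked protein-coding genes by gene length class for isolated narrow peaks ("members") and for the 20 shifts (mean, with lowest and highest shift). Right, the percent of all autosomal protein-coding genes of each length class that the peaks mark, with exact 95% intervals, which is 19.3% at 20 kb or more. The peaks exceed the highest shift between 10 and 20 kb, at 65 against 54 genes, and fall below the lowest shift between 2 and 5 kb, at 30 against 41.

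The gap rule can itself favour long genes, since a gap of 5000 bp must fit around each peak, so shifted positions were also limited to those at least 5000 bp from every replicate 2 peak. That left 162 to 195 of the 300 in each shift. The mean over these shifts was 5335 bp for the median length of the single gene (3591.5 to 7228 bp), 59.6% for the midpoint inside a gene (48.1 to 67.3%) and 64.3% for exactly 1 gene (58.0 to 72.2%). The isolated narrow peaks exceeded every one of these limited shifts on the 3 measures. These limited positions hold no replicate 2 peak, so they do not separate the gap rule from the placement of peaks. The part of the gap rule in gene length was not tested. The same rule in replicate 1 gave a median gene length of 8790 bp, against 5252 bp (3950.5 to 6468 bp) at its shifted positions, and a midpoint inside a gene in 78.5% of cases, against 63.5% (53.3 to 75.7%). For exactly 1 gene that list gave 66.4%, inside the range of its own shifts (53.3 to 71.0%). Narrow clustered peaks of replicate 2 marked genes with a median length of 6896 bp, against 5322 bp (4883.5 to 5711 bp) at their shifted positions. Genes longer than at shifted positions were therefore found at narrow peaks with and without a close neighbour, and the difference between the 2 kinds was not tested. Wide peaks did not share this. Wide peaks that stood alone had a median of 3648.5 bp, against 5981.5 bp (5225.5 to 6705 bp) at their shifted positions. Those with a closer neighbour had 6099.5 bp, against 6375 bp (5685 to 7237 bp).

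Each isolated narrow peak was put in 1 class by gene part. Of the 300, 152, or 50.7%, lay wholly within a gene, 24 others covered a whole gene, 91 others held a gene end but no whole gene, and 33 touched no gene. The 91 were 73 peaks on 1 gene and 18 on 2 or more. Counted apart from these classes, 121 peaks held a gene end and 26 a whole gene, since 6 and 2 of those within a gene did so for a second, overlapping gene. The share within a gene was 46.2% on average at the shifted positions, and 3 of the 20 shifts reached or passed that of the peaks. The peaks held a gene end in 40.3% of cases (34.7 to 46.1%), against 34.3% (29.0 to 39.3%) at the shifted positions. Neither share stood clear of the background once counting error was considered. Moving the peaks around the chromosome in 5% steps, 19 shifts in all, gave gene ends in up to 42.3% of cases, above the peaks. A whole gene lay under 26 peaks, or 8.67% (5.74 to 12.4%), against 2.53% (1.33 to 4%) at the shifted positions. This was not particular to these peaks. Narrow clustered peaks gave 3.63%, against 2.90% (2.08 to 3.43%) at their shifts. Wide peaks that stood alone gave 72.5%, against 39.1% (36.8 to 42.0%), and those with a closer neighbour 51.6%, against 35.6% (34.6 to 36.8%). Narrow clustered peaks lay wholly within a gene in 60.5% of cases, against 46.3% (42.6 to 52.2%). The gene table gives no strand, so the start of a gene and its end cannot be told apart, and it gives no exons, so exons and introns are not described.

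Midpoints within 500 bp inside a gene border were more common than at shifted positions, and midpoints outside genes were scarcer. Of the 300 midpoints, 28.3% lay inside a gene within 500 bp of its nearer border, against 16.4% (12.7 to 20.7%) at the shifted positions, and 5.33% lay outside within 500 bp, against 11.2% (8.0 to 14.3%). The scarcity was not limited to the border, with 2.67% between 500 and 1000 bp outside, against 5.6% (3.67 to 8.33%), and 4.33% more than 2000 bp outside, against 10.3% (7.67 to 16%). Deep inside genes, more than 8000 bp from the nearer border, lay 7.67% of the midpoints, against 3.97% (1.67 to 7%). The classes between 500 and 4000 bp inside were each within the range of the shifts. A midpoint in a gene shorter than 1000 bp lies within 500 bp of a border wherever it falls in that gene. The 12 peaks that covered a whole gene and touched exactly 1 gene marked genes with a median length of 952.5 bp. The part of such short genes in the share up to 500 bp inside was not tested. Of the 251 midpoints inside a gene, 118, or 47.0% (40.7 to 53.4%), lay in its central 50%, against 51.4% on average (46.5 to 57.3%) in the shifts, a difference within the counting error.

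**Figure D4:**
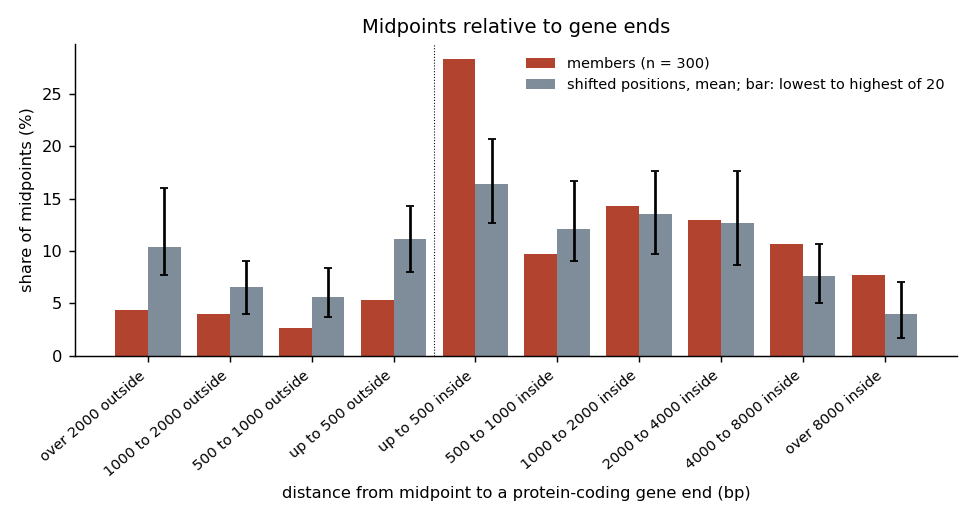
Percent of midpoints by distance (bp) from the nearest border of a protein-coding gene, outside on the left and inside on the right, for isolated narrow peaks ("members") and for the 20 shifts (mean, with lowest and highest). The class up to 500 bp inside holds 28.3% of the peaks, above the highest shift at 20.7%, and the class up to 500 bp outside holds 5.33%, below the lowest shift at 8.0%.

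Peaks at gene ends and peaks inside genes differed in replicate 1 overlap, score and width. Those holding a gene end but no whole gene had a replicate 1 peak in 82 of 91 cases, or 90.1% (82.1 to 95.4%), and a median score of 183.5. Those covering a whole gene had one in 23 of 24 cases, and a median score of 335.8. Those wholly within a gene had one in 85 of 152 cases, or 55.9% (47.6 to 64%), and a median score of 82.04. Those touching no gene had one in 16 of 33 cases, or 48.5% (30.8 to 66.5%), and a median score of 81.64. Median widths were 1610.5 bp over whole genes, 1477 bp at gene ends, 1072.5 bp within genes and 1171 bp outside, and a wider interval meets an end more often by its size alone. The part of width and score in the replicate 1 shares was not tested.

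Split by replicate 1, the 206 peaks with a replicate 1 peak held a gene end in 53.9% of cases (46.8 to 60.8%), against 37.0% (30.1 to 42.2%) at their own shifted positions, which have the same widths. They covered a whole gene in 12.1% of cases, against 2.79% (0.971 to 4.37%). The 94 peaks without one held an end in 10.6% of cases (5.22 to 18.7%), against 28.2% (22.3 to 36.2%) at their shifted positions, and lay wholly within a gene in 71.3%, against 51.4% (44.7 to 64.9%). The median marked gene was 10603 bp long for the 94, against 6220.5 bp (4098.5 to 9437 bp) at their shifted positions. For the 206 it was 8628.5 bp, where 1 of 20 shifts was as high (4458 to 8897 bp). Gene ends were thus met more often than at shifted positions by the peaks with a replicate 1 peak and less often by those without.

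**Figure D5:**
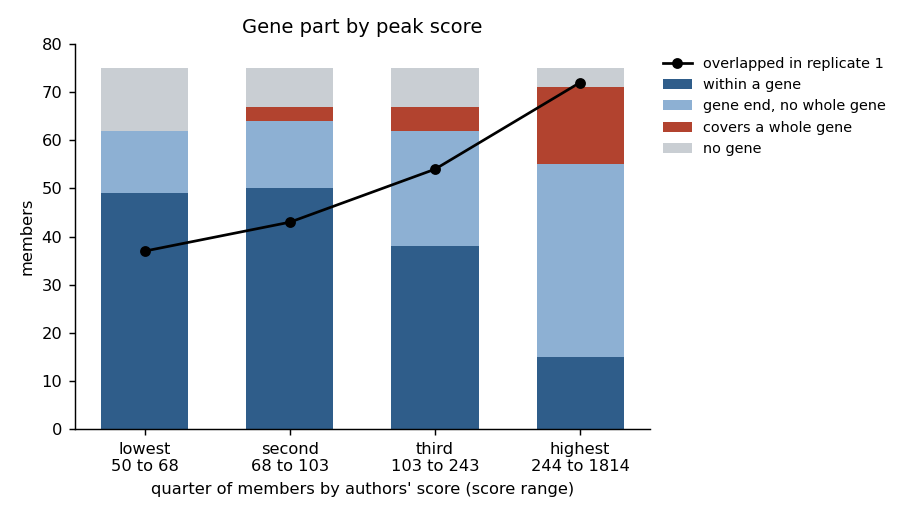
Number of isolated narrow peaks by gene part (stacked bars) in 4 groups of 75 peaks ordered by deposited score, with the number overlapped by a replicate 1 peak as points. Peaks wholly within a gene number 49, 50, 38 and 15 from the lowest to the highest group, while peaks holding a gene end but no whole gene number 13, 14, 24 and 40.

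The 33 isolated narrow peaks outside protein-coding genes had their midpoint a median of 1695 bp from the nearest gene border, with 8 within 1 kb and 3 beyond 5 kb. Of these, 10 met a pseudogene and 5 a non-coding gene, and 18 met neither. Over all 300, non-coding genes were met by 30 peaks, or 10.0%, against 9.95% (6.67 to 13.3%) at the shifted positions, and pseudogenes by 18, or 6%, against 5.63% (3 to 7.67%). Genes for tRNAs were met by 3 peaks, against 1.95 (0 to 6) in the shifts, and piRNA genes by 6, against 10.2 (6 to 15). None met a miRNA or snoRNA gene, against 0.75 (0 to 2) and 1.05 (0 to 4) in the shifts, so these zeros lay within the range of the shifts. The shares at non-coding genes and pseudogenes did not stand apart from the shifts.

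The strongest isolated narrow peaks are named by rule, as the 5 of highest score that mark exactly 1 gene on each autosome. These 25 peaks scored between 242.9 and 1813.81, and 24 of them had a replicate 1 peak. By gene part, 15 covered 1 end, 6 a whole gene and 4 lay within a gene, and all 25 had a series-wide peak. The exception in replicate 1 was the peak over D2005.1 (I 7784133 to 7785854, score 383.04). The count of 1 gene covers protein-coding genes only. Of the 25, the peaks at R11G10.3, F56D5.6, clp-3, F53E10.6 and D2005.1 also met a pseudogene, and that at tomm-20 a non-coding gene. The signal there cannot be assigned to the protein-coding gene alone.

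On chromosome V the peak in R11G10.3 (13527128 to 13528988) had the highest score, 1813.81. It was 1861 bp wide, and the replicate 1 peak over it was 2157 bp wide. No other replicate 2 peak touched the gene. At tomm-20, the import receptor of the mitochondrial outer membrane, a peak of 1987 bp (12342151 to 12344137, score 900.85) covered the whole gene, and replicate 1 had 2675 bp there. The peak at zipt-9, a ZIP-family zinc transporter gene, was 1944 bp wide (13713883 to 13715826, score 751.81), and that at ttc-37, which encodes a subunit of the SKI complex of RNA decay, was 1752 bp (5203999 to 5205750, score 688.38). The replicate 1 peaks at these places were 3722 and 4600 bp wide. F53E10.6 (2601852 to 2603327, score 1138.75) was covered whole in both replicates.

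On chromosome III the named genes included cosa-1 and tra-1. At cosa-1, whose cyclin-like product marks meiotic crossover sites, a peak of 1545 bp (2725774 to 2727318, score 463.02) covered 1 end, under a replicate 1 peak of 5805 bp. At tra-1, the Gli-family transcription factor gene at the end of the sex-determination pathway, a peak of 1763 bp (11193737 to 11195499, score 397.81) covered 1 end of a gene of 24312 bp, under a replicate 1 peak of 3004 bp. The others on III marked E02H9.3, M142.5 and hpo-29, with scores of 488.59, 468.66 and 435.1.

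On chromosome IV the highest peak was in F56D5.6 (9402423 to 9404351, score 1463.38). The peak at cpsf-1 (2031555 to 2033458, score 648.38), which encodes a subunit of the factor that cleaves mRNA for polyadenylation, was 1904 bp wide with 2779 bp in replicate 1. Y57G11C.33, Y55F3BR.1 and Y55F3BR.6 scored 736.34, 527.81 and 288.99. On chromosome I the named genes were clp-3, a calpain protease gene (12077587 to 12079094, score 1012.31), hil-5, a linker histone gene covered whole (5774166 to 5775916, score 900.49), ego-2, abhd-11.2 and D2005.1. At hil-5 the replicate 1 peak was 2404 bp wide, against 1751 bp in replicate 2. On chromosome II they were F07E5.5, dph-2 of diphthamide synthesis, dnc-3 of the dynactin complex, Y54E2A.4 and B0228.7, with scores of 466.51, 464.12, 444.33, 290.29 and 242.9. At dnc-3 a peak of 1481 bp (3553510 to 3554990) covered the whole gene, and the replicate 1 peak was 3464 bp wide.

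Of the 40 isolated narrow peaks on 2 or more genes, 34 had a replicate 1 peak. The 3 examples that follow were chosen after their values were seen, and each covered a whole gene. One on chromosome II with a score of 772.49 lay over F54D10.4 and F54D10.5. One on chromosome III with a score of 344.73 lay over ttr-5, ufc-1 and elo-4, and one with a score of 239.01 lay over glrx-21 and thoc-5, a gene for a subunit of the THO complex of mRNA export. The neuropeptide gene flp-16 shared its peak, with a score of 203.54, with romo-1 on chromosome II.

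By length, the shortest genes marked singly were W08F4.1 at 340 bp, F23H12.10 at 601 bp and C16C4.18 at 708 bp, each with a replicate 1 peak. The longest genes were afd-1 at 49607 bp, which carried 1 peak of 946 bp (I 2165266 to 2166211, score 93.59), and rhgf-3 at 49355 bp, which carried 2. The afd-1 peak had no replicate 1 peak and lay 5700 bp inside the gene.

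An isolated narrow peak marked a small piece of its gene. The isolated narrow peaks covered a median of 11.8% of the gene (quartiles 7.55 and 22%), and at least 50% of 24 of the 211 genes. No other replicate 2 peak touched 172 of the 211 genes. All replicate 2 peaks together covered a median of 15.5% of the gene, where replicate 1 peaks covered 36.2%. Replicate 1 covered more of the gene than replicate 2 in 155 of the 211 genes, and at least 50% of it in 74. Of the 211 genes, 28 had no replicate 1 peak, and 34 had one only away from the isolated narrow peak. The genes were selected by a narrow replicate 2 peak, which limits their replicate 2 coverage, so this gap between the replicates is a description of the selected genes only.

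Counting only peaks on exactly 1 gene, 15 genes carried 2 or more isolated narrow peaks, which together were 31 of the 227. With peaks that also touch a second gene, 18 genes did, the other 3 being wdfy-3, Y48E1C.1 and Y32H12A.8. Replicate 1 covered more of the gene than replicate 2 in 14 of the 15, with medians of 9.41% in replicate 2 and 33.9% in replicate 1. The exception was egl-4, with 8.95% in replicate 2 and 4.94% in replicate 1, and zfr-1 was nearly level at 8.66% in replicate 2 and 9.25% in replicate 1. Par-1, the polarity kinase gene of the early embryo, carried 3 in its 33335 bp, at V 14113225 to 14114100, 14119972 to 14121905 and 14132134 to 14133379, with scores of 101.54, 157.83 and 439.99. The outer 2 had a replicate 1 peak and the middle one did not, and peaks covered 12.2% of the gene in replicate 2 and 33.9% in replicate 1. Ego-2, which promotes Notch signalling in the germline, had 2 peaks with scores of 51.34 and 586.27 that covered 12.9% of its 15903 bp, where 4 replicate 1 peaks covered 72.2%. Hpo-29 had 9.41% covered in replicate 2 and 62.0% in replicate 1, and tra-1 had 8.71% in replicate 2 and 22% in replicate 1.

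Signalling and cytoskeletal genes were among these 15, as named after their values were seen. Lit-1, the Nemo-like kinase of Wnt signalling, had 2 peaks of 604 and 1025 bp, both with a replicate 1 peak, and noca-1, needed for microtubule arrays away from centrosomes, had 2 of 1922 and 810 bp, also both. Egl-4, a cGMP-dependent protein kinase gene, had 2 peaks of 1432 and 795 bp without a replicate 1 peak, and another isolated narrow peak of 1146 bp, shared with ccm-2, that had one of 3576 bp. Crh-1, the worm CREB gene, had 2 of 1026 and 622 bp, of which the first had one. In 10 of the 15 genes, counting their 31 peaks, the peak of highest score lay nearest a gene border, and in crh-1, egl-4, frl-1, par-1 and rhgf-3 it did not. With only 2 such peaks per gene, or 3 in par-1, this occurs in many genes without any relation. Whether 10 exceeds that was not tested. In tra-1, cpsf-1, zfr-1, noca-1 and hpo-29 the peak of higher score had its midpoint 583, 490, 374, 603 and 362 bp inside the nearer gene border. The lower peak of those genes lay 1902, 11332, 8233, 9808 and 7456 bp inside. In the rest of the 10, the higher peak lay 58, 1918, 207 and 1968 bp inside in Y54G11A.3, dock-11, ego-2 and lit-1. In unc-132 it lay 51 bp outside. The lower peak of these genes, in that order, lay 170, 9194, 4180, 8839 and 3414 bp inside. In the exceptions crh-1, egl-4, frl-1, par-1 and rhgf-3 the top peak lay 14217, 14343, 10880, 12611 and 14107 bp inside. The peak nearest a border lay 4370, 7843, 1629 and 7092 bp inside in egl-4, frl-1, par-1 and rhgf-3, and 35 bp outside in crh-1.

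A set of 20 lists of gene families and pathways was matched to the 211 genes to see which kinds of gene are marked this way. Housekeeping families had peaks in the replicate 2 list over most of their genes. Isolated narrow peaks singly marked 0 of 63 cytoplasmic ribosomal protein genes, 0 of 33 proteasome genes and 0 of 26 nuclear pore genes, while 95.2%, 93.9% and 84.6% of these genes had some replicate 2 peak, against 32.3% of all autosomal genes. At the 1.22% of all autosomal genes marked singly, lists of this size would hold few marked genes in any case, so these zeros say little. They singly marked 1 of 71 mitochondrial ribosomal protein genes, mrpl-30, and 1 of 33 aminoacyl-tRNA synthetase genes, yars-1, or 1.41% and 3.03%, and neither peak was found in replicate 1. Of 32 germline RNA-binding genes none was marked singly, although 93.8% had a replicate 2 peak. Of 27 meiotic genes 2 were, cosa-1 and him-5, which promotes crossovers on the X chromosome, and both had a replicate 1 peak. The him-5 peak (V 14090691 to 14091893, score 182.82) was 1203 bp wide in a gene of 2029 bp.

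In other families 1 gene each was marked singly among 1275 chemoreceptor genes (sre-45), 246 nuclear receptor genes (nhr-105), 129 collagen genes (col-157), 156 F-box genes (fbxa-3), 46 homeobox genes (ceh-100) and 11 kinesin genes (klp-12). The fbxa-3 and ceh-100 peaks had a replicate 1 peak, and the other 4 had none. The kinesin and homeobox shares, 9.09% and 2.17%, rest on that 1 gene each. Any replicate 2 peak touched 1.88% of the chemoreceptor, 4.47% of the nuclear receptor and 14.7% of the collagen genes. It touched 10.3% of the F-box, 15.2% of the homeobox and 36.4% of the kinesin genes, against 32.3% of all autosomal genes. None was marked singly among 68 genes named his-, a list that leaves out the linker histone gene hil-5 described above, nor among 31 major sperm protein genes, 236 C-type lectin genes, 67 cytochrome P450 genes, 110 neuropeptide genes, 11 muscle genes or 13 neuron genes. Any replicate 2 peak touched 19.1% of the his- genes, 0% of the major sperm protein, 3.39% of the C-type lectin and 4.48% of the cytochrome P450 genes. For the neuropeptide, muscle and neuron lists the shares were 10.0%, 9.09% and 7.69%. Low counts in lists with few replicate 2 peaks of any kind therefore say little about isolated narrow peaks. The lists also differ in gene length. The kinesin gene klp-12, for one, is 18545 bp long, and the median gene of the ribosomal list is 732 bp.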

How the data were processed

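The authors deposited 3 peak lists with positions on WormBase WS220, per the file headers: 1 for each of 2 MRG-1 ChIP replicates, from MACS, and 1 series-wide, from MACS v2. The submitters' processing notes name BWA and ce10 for the alignment. The sources used here do not give thresholds, use of the input or pooling. The score of each peak was deposited by the authors without a definition. Depth is unknown.

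Members were found by width and gaps in replicate 2 and compared with the same intervals moved by 10 to 100 kb in 10 kb steps either way. Overlap meant at least 1 bp. The RefSeq table for WBcel235 gave gene names, spans and types, and none of its coordinates is printed. It has no strand, so the 2 planned measures of gene starts and of the first part of a gene, and promoter motifs, were not run and gene ends took their place. No p-value is given, since the lists hold no value per sample to test. Named peaks were the 5 highest by score marking 1 gene on each autosome, the shortest and longest genes, and genes with several. Members, lists and rules were chosen with earlier results of these data known. Chromosome centres were the middle 50%. The measures were tested on simulated data. Software was scipy 1.17.1 for intervals, pandas 2.3.3 and numpy 2.4.6 for tables, matplotlib 3.10.9 for plots, and Python 3.11.15.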

Additional observations from a re-analysis of the deposited data

How the results depend on the processing

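Across 9 measures, 105 values were computed under other settings, and 75 stayed within the counting error or, for the number of peaks, within 1.5 times of 300. That number was 206 and 375 with widths below 1500 and 2500 bp, and 441 with a gap of 3000 bp. With widths below 1500 bp, 29.1% of the peaks held a gene end, 60.7% lay within a gene and 61.2% were overlapped in replicate 1. With widths below 2500 bp, 48.3% held an end and 43.5% lay within. A gap of 10000 bp left 174 peaks, with 47.1% at an end, 41.4% within and a median gene of 8246 bp. The top 50% by score, 150 peaks, gave 59.3% at an end, 35.3% within and 84.0% overlapped. Peaks with a replicate 1 peak gave 53.9% at an end and 41.3% within, and those without gave 10.6% and 71.3%. All gene types gave 88.0% of midpoints in a gene and 50% at an end, spans extended by 200 bp gave 57.7% within, and an overlap of 200 bp gave 3% at non-coding genes. The top 50% of replicate 1 overlapped 24.0%. Without replicate 2, the rule in replicate 1 gave 107 peaks, with 66.4% on 1 gene, 78.5% of midpoints in a gene, 50.5% at an end, 36.4% within, 5.61% at non-coding genes, 28.0% overlapped and 22.4% in centres. Causes were not tested. No paired analysis was possible because the results come from no test over samples. The settings on gene ends, limited shifts and replicate 1 splits were added after the data were seen. Neither depth nor counts are known, so no peak has an error of its own.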
